A study of Homo sapiens with 6 samples.

Results

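The genes of 6 kinases, atypical and ERK-type mitogen-activated protein (MAP) kinases and a kinase that the atypical ones activate, were read in Ishikawa cells, an established endometrial adenocarcinoma line that responds to estrogen. They are MAPK4, MAPK6, MAPK15, MAPKAPK5, MAPK3 and MAPK7, taken by name from a table of 26364 gene symbols, and all 6 were found. MAPK4 drew attention to the group because it was higher in cells lacking the transcription factor ETV4. The difference between knockout and parental cells is therefore described for these 6 genes without a test. The estrogen response and the difference between clones were not the ground for the choice and were tested. Earlier results of these data were known when the genes were chosen. All 6 passed the filter on low counts, with at least 43 counts in every library, so none passed through a group of high libraries alone.

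MAP kinases are the last step of phosphorylation cascades that carry signals from receptors to transcription factors. MAPK3 (ERK1) is a classical member, switched on by MEK on both a threonine and a tyrosine of its activation loop. MAPK7 (ERK5) has its own activator, MEK5, and a long tail that acts in transcription. MAPK6 (ERK3) and MAPK4 (ERK4) are atypical: their activation loop holds a single phosphorylation site, and their best known partner is the kinase MAPKAPK5 (MK5), which they bind and activate. MAPK15 (ERK7 or ERK8) is also called atypical, activates itself and has been linked to cilia and autophagy. ETV4 belongs to the PEA3 group of ETS factors, which act downstream of ERK signalling.

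Sequencing of poly(A) RNA gave 6 libraries from 3 lines: parental Ishikawa cells with ETV4 intact and ETV4 knockout clones 1 and 2. Each line gave 1 library after 0.1% DMSO, the vehicle, and 1 after 10 nM E2 (17β-estradiol), following culture in hormone-depleted medium that all 6 shared. The time of treatment is 8 h in the protocols and 1 h in the sample characteristics. Each knockout line is a single clone, the parental line has 1 library per treatment, and no label names separate cultures, so p-values measure the spread between these libraries and genotype cannot be told apart from other differences between lines.

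The libraries held 28037392 to 36829479 counts. Levels are in CPM, counts scaled to library size with TMM factors. The parental line had 19.7 CPM of ETV4 after DMSO and 28.4 CPM after E2, and the clones had 2.42 to 3.41 CPM. All 7 epithelial markers were present in every library, at a summed 2492 to 3443 CPM. Endothelial markers, chiefly VWF, summed to 1.61 to 2.32 CPM in the parental line and 2.60 to 3.96 CPM in the clones. Leukocyte markers summed to 2.29 to 4.76 CPM, with CD3E at 0. Fibroblast markers summed to 57.7 to 85.8 CPM in the parental line and 46.6 to 74.2 CPM in the clones. Most of it was COL1A1, whose parental and clone ranges overlapped. COL3A1 had 7.93 and 9.73 CPM in the parental line and 1.34 to 3.35 CPM in the clones. The part of these markers in the results was not tested. Across genes, which are not independent replicates, the E2 change ran with transcript GC content, at a Spearman's rho of 0.329 for parental cells, 0.127 for clone 1 and -0.00982 for clone 2.

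The stretch before the start site is shown for MAPK4, which separated the clones from the parental line, and for MAPK6, its closest relative, which did not. The sequences are RefSeq's (GRCh38.p14), 250 bases ending just before the annotated start, both on the plus strand, at chr18:50559837-50560086 for MAPK4 and chr15:52018969-52019218 for MAPK6. Capitals mark GGAA or its reverse complement TTCC, the core that ETS factors recognise.
MAPK4: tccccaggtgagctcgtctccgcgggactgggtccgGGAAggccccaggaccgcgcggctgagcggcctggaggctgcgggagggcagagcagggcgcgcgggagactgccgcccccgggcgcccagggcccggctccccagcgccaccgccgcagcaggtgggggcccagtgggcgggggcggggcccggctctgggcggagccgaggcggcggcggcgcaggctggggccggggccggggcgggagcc
MAPK6: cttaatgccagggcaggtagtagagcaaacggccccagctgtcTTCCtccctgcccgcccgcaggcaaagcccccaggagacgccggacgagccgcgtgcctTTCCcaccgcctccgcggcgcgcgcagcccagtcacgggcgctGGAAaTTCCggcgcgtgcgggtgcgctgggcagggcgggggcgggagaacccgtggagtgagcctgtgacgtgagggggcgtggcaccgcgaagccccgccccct

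Both strands were searched, and matches could overlap. MAPK4 held 1 core match and MAPK6 held 4, against a median of 3 over 35116 RefSeq windows of the same length, of which 92.7% held at least 1. The longer form CCGGAA was found once for MAPK6 and not for MAPK4, and in 14.5% of all windows. Windows were matched for 5 of the 6 genes, and MAPK15 had none. MAPKAPK5 held 3 core matches and MAPK3 held 1, and the 2 windows of MAPK7 held 3 and 0. Neither ACCGGAAGT nor the estrogen response element GGTCANNNTGACC was in any of the members' windows (0.814% and 0.0399% of all windows). CCGGAA and ACCGGAAGT both contain the core. These are letters in a window and say nothing of binding.

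Both knockout clones held about 4-fold more MAPK4 RNA than parental cells, whichever treatment they had received. Parental cells had 1.45 CPM in DMSO, from 43 counts, and 1.60 CPM in E2, from 60 counts. Clone 1 had 6.20 CPM in DMSO and 7.06 CPM in E2. Clone 2 had 6.04 CPM in DMSO and 6.18 CPM in E2. The 4 clone libraries lay close together and well above both parental ones, as 8.53% of genes did without regard to size. MAPK4 was chosen for this difference, so its counting intervals are given as description. The highest 95% Poisson bound of a parental library was 2.06 CPM and the lowest of a clone library 5.19 CPM. These intervals cover counting error only, and in bulk RNA fewer cells that express a gene and less RNA per cell cannot be told apart.

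The mean log2 difference of the clones from the parental line was 2.04 ± 0.03 (SD, n = 2) in DMSO, a 4.10-fold difference, and 2.00 ± 0.13 (SD, n = 2) in E2. Over all 6 libraries, with treatment in the model, the fitted log2 difference was 2.06 (SE 0.21). MAPK4 was the only one of the 6 genes with at least a 2-fold difference in each of the 4 like-for-like comparisons of a clone with the parental line, a pattern that 0.564% of the 15611 tested genes had in the upward direction. Since MAPK4 was chosen for this difference, nothing is read from that share.

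**Figure D1:**
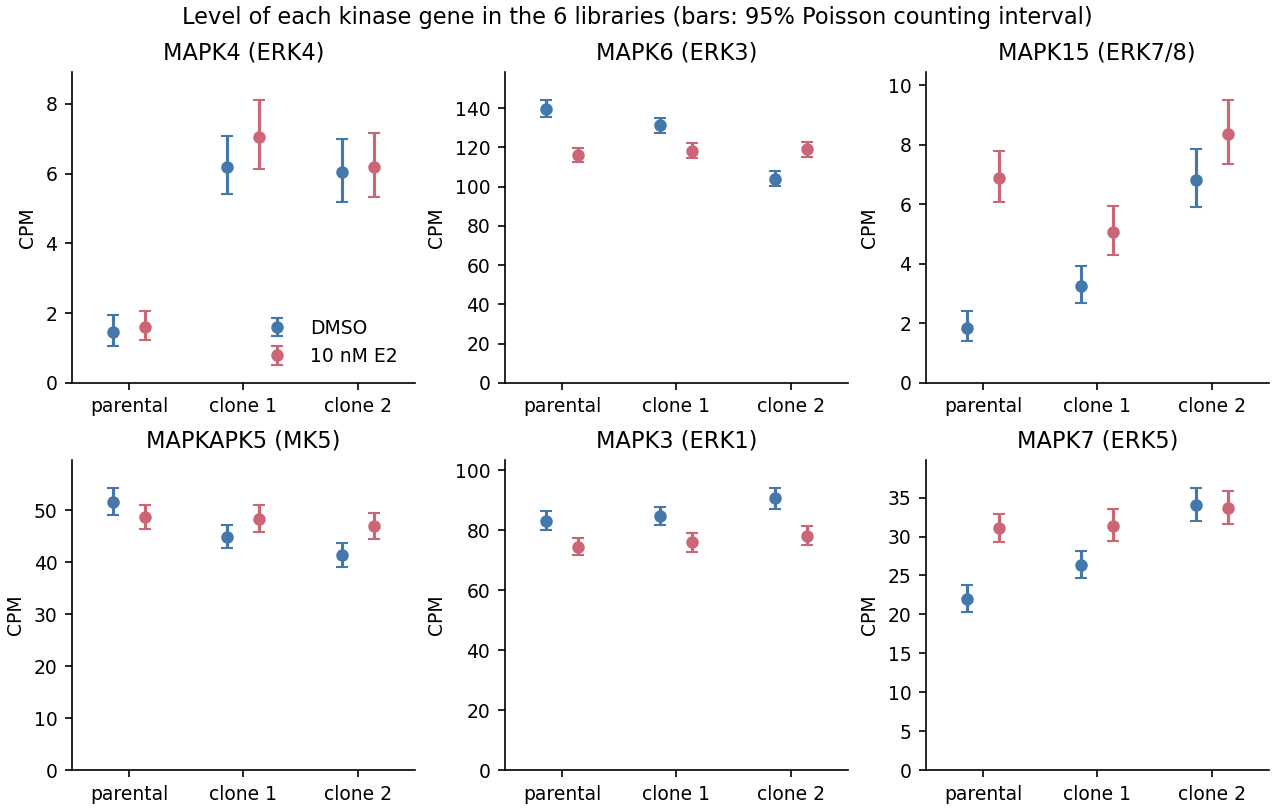
Level of each kinase gene in CPM (vertical axes, starting at 0) in the parental line and the knockout clones (horizontal axes) after DMSO (blue) or 10 nM E2 (red); each point is 1 library and bars are 95% Poisson counting intervals. MAPK4 lies between 6.04 and 7.06 CPM in the clones and at 1.45 and 1.60 CPM in the parental line, while MAPK15 is lowest in the parental DMSO library.

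MAPK4 stood at nearly the same level in DMSO and E2 within each line. The log2 change from DMSO to E2 was 0.14 for parental cells, 0.19 for clone 1 and 0.03 for clone 2, positive in all 3 lines as for 27.8% of genes. After each library's trend with GC content and transcript length was removed the parental change was -0.21 and those of the clones 0.09 and 0.06. The fitted E2 effect was 0.12 (SE 0.18), with a 95% interval of -0.31 to 0.56 (adjusted p 0.707 from the quasi-likelihood test of edgeR). In that test 1.13% of all genes passed an adjusted p of 0.05, with 0.903% of all genes higher in E2. The difference in E2 effect between the clones and the parental line, the interaction, was -0.04 (SE 0.44), with an interval of -1.09 to 1.02. Clone 2 minus clone 1 was -0.11 (SE 0.19), with an interval of -0.57 to 0.34. GENCODE lists 1 processed pseudogene that shares 333 exonic bases with MAPK4 on the same strand.

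MAPK6, the closest relative of MAPK4, which also activates MAPKAPK5, was far more abundant and showed no such step between lines. The parental line had 139.6 CPM in DMSO and 116 CPM in E2. Clone 1 had 131 CPM in DMSO and 118 CPM in E2. Clone 2 had 104 CPM in DMSO and 119 CPM in E2. The clone and parental ranges overlapped, and the E2 libraries lay between 116 and 119 CPM, while the DMSO libraries held both the highest and the lowest value.

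For MAPK6 the clones differed from the parental line by a mean log2 of -0.26 ± 0.24 (SD, n = 2) in DMSO and 0.03 ± 0.01 (SD, n = 2) in E2. The knockout difference over all libraries was -0.11 (SE 0.15), and 0.022 without the parental DMSO library. The fitted E2 effect was -0.08 (SE 0.14), with an interval of -0.41 to 0.25 (edgeR, adjusted p 0.749). The E2 change was negative in the parental line and clone 1 and positive in clone 2, at -0.27, -0.15 and 0.19. MAPK6 has processed pseudogenes elsewhere in the genome, and reads shared with them could not be followed in a table of symbols.

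MAPKAPK5, the kinase that MAPK4 and MAPK6 bind and activate, varied little. Parental cells had 51.7 CPM in DMSO and 48.7 CPM in E2. Clone 1 had 44.9 CPM in DMSO and 48.4 CPM in E2, and clone 2 had 41.3 and 46.9 CPM. All 4 clone libraries were below both parental ones, as they were for 7.82% of tested genes, but the closest pair, clone 1 and the parental line in E2, differed by less than their counting intervals.

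The mean log2 difference of MAPKAPK5 in the clones was -0.26 ± 0.09 (SD, n = 2) in DMSO and -0.03 ± 0.03 (SD, n = 2) in E2. Over all libraries it was -0.15 (SE 0.12), but -0.04 without the parental DMSO library and -0.36 after the GC and length correction. The fitted E2 effect was 0.07 (SE 0.11), with an interval of -0.20 to 0.34 (edgeR, adjusted p 0.746). The interaction was 0.23 (SE 0.23), adjusted p 0.749. It passed only with line as a replicate block and each library's GC and length trend removed, at 0.54 with an adjusted p of 0.0110, where 10.9% of genes passed; its adjusted p ran from 0.0110 to 0.879 over the alternatives. The exons of MAPKAPK5 share 792 bases with those of the opposite-strand gene MAPKAPK5-AS1 and 2129 with ADAM1A on the same strand, and the strand setting of the counting was not given in the sources used here.

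**Figure D2:**
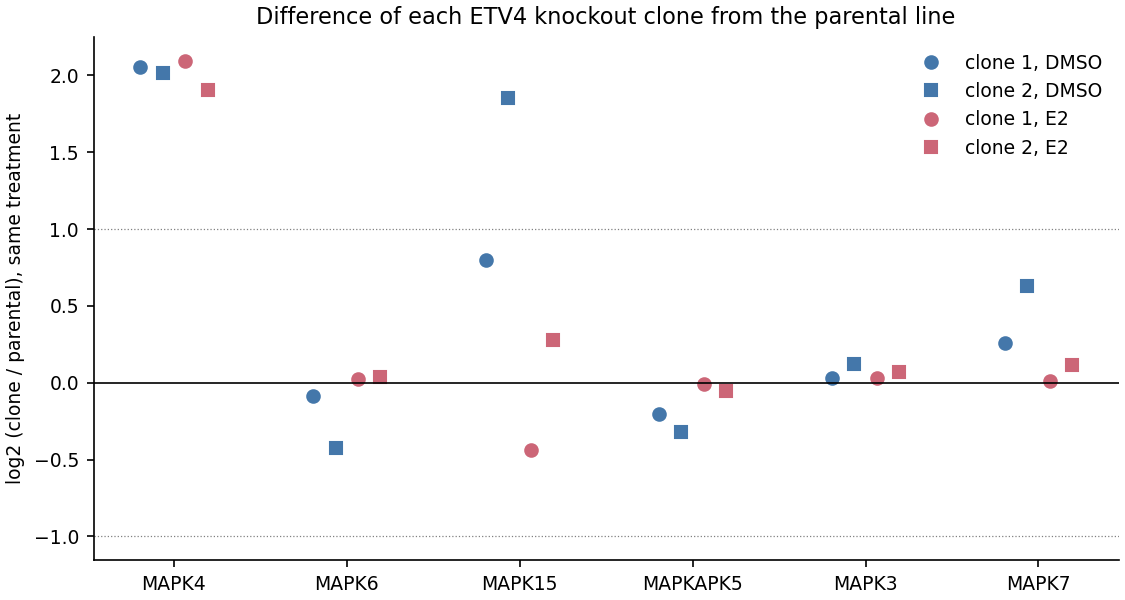
Log2 ratio of each knockout clone to the parental library of the same treatment (vertical axis) for the 6 genes (horizontal axis), with clone 1 as circles and clone 2 as squares, DMSO in blue and E2 in red; dotted lines mark a 2-fold difference. All 4 points of MAPK4 lie between 1.91 and 2.10, and those of MAPK15 are spread from -0.44 to 1.85.

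MAPK15 stood further apart between DMSO and E2 than any other of the 6 genes, most of all in the parental line. The parental line had 1.85 CPM in DMSO, from 55 counts, and 6.89 CPM in E2, from 258 counts. Clone 1 had 3.27 CPM in DMSO and 5.07 CPM in E2. Clone 2 had 6.83 CPM in DMSO and 8.37 CPM in E2. The parental DMSO library was the lowest of the 6, as it was for 32.3% of tested genes, and the parental E2 library lay inside the range of the clones. The parental E2 level was over 2-fold above that in DMSO, as for 11.3% of genes.

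In DMSO MAPK15 was higher in both clones, by a mean log2 of 1.33 ± 0.74 (SD, n = 2). In E2 the clones stood on either side of the parental line, at -0.08 ± 0.51 (SD, n = 2). Its fitted knockout difference was 0.61 (SE 0.47) over all libraries, -0.05 without the parental DMSO library, 0.13 without clone 2 and 1.01 without clone 1. The E2 change was positive in all 3 lines, at 1.86 for parental cells, 0.63 for clone 1 and 0.29 for clone 2. A parental change above 0 with smaller values in both clones was found for 39.3% of genes. With line as a replicate block the E2 effect was 0.90 (SE 0.32), with an interval of 0.13 to 1.67. It did not pass (edgeR, adjusted p 0.154), in a fit where 2.46% of genes passed. Without the block the fitted E2 effect of 0.88 (SE 0.43) had an interval of -0.14 to 1.91 and did not pass (edgeR, adjusted p 0.294). It passed without clone 2, at 1.24 (edgeR, adjusted p 1.96e-04), in a fit with 1 residual degree of freedom where 21.6% of genes passed. The E2 effect was 0.41 without the parental line and 0.40 without the parental DMSO library. Its adjusted p ran from 1.96e-04 to 0.847 over the alternatives.

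Whether the E2 effect on MAPK15 differed between the genotypes depended on the pairing of libraries by line. Without the block the interaction was -1.48 (SE 0.75), with an interval of -3.30 to 0.34 (adjusted p 0.617), in a test of edgeR that called 0% of genes. With line as a replicate block it was -1.45 (SE 0.35), with an interval of -2.13 to -0.76 and an adjusted p of 0.00119. That fit left 1 residual degree of freedom, and its p-values rest on a spread shared over all genes, not on that of MAPK15 alone. It called 2470 genes, 15.8% of those tested, 8.9% upward and 6.92% downward. The direction held with either clone alone, at -1.24 for clone 1 and -1.57 for clone 2. Both values use the same parental libraries, so they are not independent of each other. With the block, limma-voom gave an adjusted p of 0.00609, with 12.2% of genes called, and DESeq2 gave an unadjusted p of 0.0153 and no adjusted p. The adjusted p ran from 0.00119 to 0.879 over the alternatives.

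MAPK15 has 65.8% GC in its RefSeq-matched transcript, above 96.7% of genes with a value. The part of GC content in this result was not tested. With genes in 5 equal bins by GC, the median E2 change of parental cells was 0.34 in the highest bin and -0.30 in the lowest. After the GC and length trend was removed the E2 change of MAPK15 was 1.70 for parental cells, 0.60 for clone 1 and 0.25 for clone 2. The interaction with the block was then -1.32 (edgeR, adjusted p 0.00267), where 10.9% of genes passed. An opposite-strand gene shares 166 exonic bases with MAPK15.

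**Figure D3:**
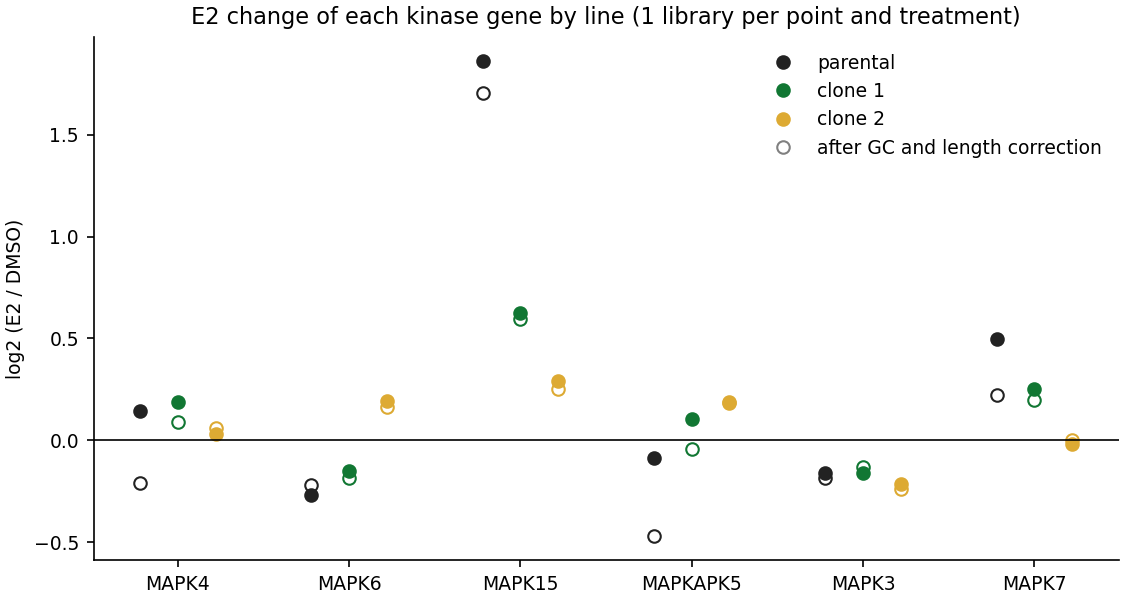
Log2 change from DMSO to E2 (vertical axis) of each gene (horizontal axis) in the parental line (black), clone 1 (green) and clone 2 (yellow), 1 library per treatment; open circles show the change after each library's GC and length trend was removed. MAPK15 lies at 1.86 in the parental line and at 0.63 and 0.29 in the clones, and the uncorrected changes of the other 5 genes lie between -0.27 and 0.50.

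MAPK3, which encodes the classical kinase ERK1, stood at nearly one level in the 3 lines. Parental cells had 83.2 CPM in DMSO and 74.5 CPM in E2. Clone 1 had 84.9 CPM in DMSO and 76.0 CPM in E2, and clone 2 had 90.7 and 78.1 CPM. All 3 DMSO libraries lay above all 3 E2 libraries, as for 10.7% of tested genes, and the genotypes overlapped. The E2 change was -0.16 for parental cells, -0.16 for clone 1 and -0.21 for clone 2, negative in all 3 lines as for 25.2% of genes. The fitted effect was -0.18 (SE 0.11), with an interval of -0.43 to 0.07 (edgeR, adjusted p 0.363), so a shift of this size was not distinguished from the spread between libraries. The mean log2 difference of the clones from the parental line was 0.08 ± 0.07 (SD, n = 2) in DMSO and 0.05 ± 0.03 (SD, n = 2) in E2, and the fitted one 0.06 (SE 0.11). MAPK3 is also GC-rich, above 88.7% of genes, and its parental E2 change was -0.18 after the correction.

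MAPK7, the gene of ERK5, was lowest in the parental DMSO library, as MAPK4, MAPK15 and 32.3% of all tested genes were. The parental line had 22.02 CPM in DMSO and 31.1 CPM in E2. Clone 1 had 26.4 CPM in DMSO and 31.4 CPM in E2, and clone 2 had 34.1 and 33.7 CPM. The E2 libraries stood close together, and the DMSO libraries were spread more widely, with clone 2 above all others.

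The log2 E2 change of MAPK7 was 0.50 for parental cells, 0.25 for clone 1 and -0.02 for clone 2. The fitted effect was 0.24 (SE 0.16), with an interval of -0.13 to 0.61 (edgeR, adjusted p 0.404). The interaction of -0.39 (SE 0.31) had an adjusted p of 0.688, and 0.235 with the block. After the GC and length trend was removed the parental change was 0.22 in place of 0.50; the transcript is richer in GC than 86.2% of genes. The clones differed from the parental line by a mean log2 of 0.44 ± 0.26 (SD, n = 2) in DMSO and 0.06 ± 0.07 (SD, n = 2) in E2. Over all libraries the difference was 0.25 (SE 0.17), and 0.055 without the parental DMSO library. The exons of MAPK7 share 243 bases with B9D1 and 103 with MFAP4, both on the opposite strand.

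The clones were then compared with each other, with treatment in the model. None of the 6 genes passed an adjusted p of 0.05 in edgeR, which called 0.871% of all genes. MAPK15 came closest, at a log2 difference of clone 2 minus clone 1 of 0.91 (SE 0.38, unadjusted p 0.0516, adjusted p 0.414). It was higher in clone 2 in both treatments, by 1.05 in DMSO and 0.72 in E2, as 35.7% of genes were in direction. Without the parental line MAPK15 passed, at 0.89 with an adjusted p of 5.49e-05, in a fit with 1 residual degree of freedom that called 18.3% of genes; its adjusted p ran from 5.49e-05 to 0.920 over the alternatives. MAPK7 differed by 0.24 (SE 0.17), MAPK6 by -0.16 (SE 0.17), MAPKAPK5 by -0.08 (SE 0.14) and MAPK3 by 0.07 (SE 0.13). MAPK4 and MAPKAPK5 were lower in clone 2 in both treatments, as 35.1% of genes were.

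Levels between genes were compared per kilobase of the longest RefSeq-matched GENCODE transcript, as the mean over the 6 libraries. MAPK3 was highest at 43.7 CPM per kb (range 40.0 to 48.7), followed by MAPK6 at 22.7 (19.5 to 26.1) and MAPK7 at 9.45 (6.99 to 10.8). MAPKAPK5 followed at 4.14 (3.64 to 4.55), but it reached 28.8 when its shortest transcript was used. MAPK15 at 2.74 CPM per kb (0.943 to 4.27) and MAPK4 at 0.997 (0.303 to 1.48) were lowest and overlapped, and with the shortest transcripts MAPK4 stood at 3.02 and MAPK15 at 2.74.

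The genes whose log2 CPM ran most like that of MAPK4 over the 6 libraries were picked from 12366 others with a mean of at least 2 CPM. Pearson's r was 0.995 for ZNF417, 0.994 for ZNF284, 0.989 for LHX2, 0.989 for ZNF518B and 0.988 for ZNF793. ZNF793 went from 6.66 and 8.07 CPM in the parental line to between 17.8 and 22.8 CPM in the clones, and LHX2 from 2.29 and 2.54 to between 3.85 and 4.42 CPM. The most opposite were EPHA5 at -0.995, DPAGT1 at -0.990 and PDLIM2 at -0.990; EPHA5 had 103 and 71.1 CPM in the parental line and at most 1.54 CPM in the clones. With 6 libraries from 3 lines these values describe the step between lines, and by Spearman's rho none of the 5 was among the first 5, since 26 genes reached 1. Among the other kinases r with MAPK4 was -0.65 for MAPKAPK5, -0.41 for MAPK6, 0.23 for MAPK3, 0.42 for MAPK15 and 0.56 for MAPK7.

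**Figure D4:**
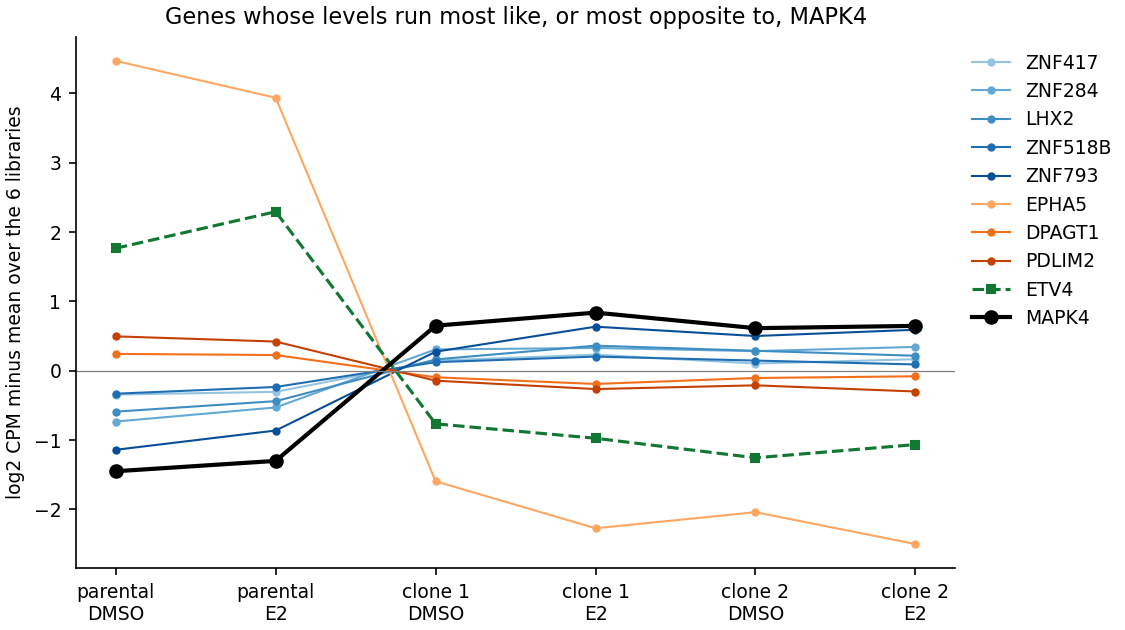
Log2 CPM minus the mean over the 6 libraries (vertical axis) for MAPK4 (black), the 5 genes most like it (blue), the 3 most opposite (orange) and ETV4 (green, dashed) in each library (horizontal axis); lines only join the points of a gene. MAPK4 and the blue genes are low in both parental libraries and higher in the 4 clone libraries, and ETV4 and EPHA5 run the other way.

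The pathways around these kinases were read from lists of 71 genes, of which 70 could be tested. In edgeR 0 of the 70 passed an adjusted p of 0.05 for the knockout, the E2 effect, the interaction or the clone difference, with 9, 9, 2 and 8 at an unadjusted p under 0.05. By direction, 6 stood higher and 3 lower in the knockout, 7 higher and 2 lower in E2, and 2 higher and 6 lower in clone 2. Over all genes the knockout test called 0.327%, and an unadjusted p under 0.05 was reached by 11.4%, 20.4%, 7.62% and 12.1% in the same order. DESeq2 called 3 genes of the lists for the knockout, where it called 2.91% of all genes, 4 for E2, where it called 7.14%, and 0 for the others, and limma-voom called 0 in each comparison. With the replicate block edgeR called 2 of 70 for E2, where 2.46% of all genes passed (1.72% upward), a share near that over all genes. For the interaction it called 4 of 70, where 15.8% of all genes passed, a smaller share than over all genes.

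Among 15 partners of the atypical kinases the median knockout log2 difference was 0.08, against 0.01 over all genes. FOXO3, a transcription factor that MAPKAPK5 can phosphorylate, came closest, at 0.89 (SE 0.18, adjusted p 0.155), with 17.9 and 26.9 CPM in the parental line and 36.2 to 44.9 CPM in the clones. For E2 it was the survival kinase AKT1, at 0.54 (SE 0.12, adjusted p 0.106), which was higher in E2 in each line. For the clone difference it was PAK3, of the PAK kinases that phosphorylate the activation loop of ERK3 and ERK4, at -0.86 (SE 0.23, adjusted p 0.220).

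The blocked interaction, which called 15.8% of all genes, called 3 of these 15 partners, a share near that over all genes. The small GTPase RHEB differed by 0.66 (SE 0.24, adjusted p 0.0420), with an E2 change of -0.80 for parental cells, -0.07 for clone 1 and -0.22 for clone 2. The DNA repair enzyme TDP2 differed by 0.68 (SE 0.21, adjusted p 0.0163) and the deubiquitinase USP20 by -0.79 (SE 0.23, adjusted p 0.00775), both in edgeR. The change in the parental line was larger than in either clone for each of them.

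Of 23 genes of the classical ERK cascade, the translation kinase MKNK2 came closest for the knockout, at 0.46 (SE 0.17, adjusted p 0.390), and the ERK-binding protein PEA15 for E2, at -0.56 (SE 0.15, adjusted p 0.135). PEA15 was lower in E2 in each line, with changes of -0.58, -0.52 and -0.59. The kinase RPS6KA2 (RSK3) was the 1 gene of these 23 called by the blocked interaction, which called 15.8% of all genes, at -0.66 (SE 0.22, adjusted p 0.0231). RPS6KA6 came closest between the clones, at 0.446 CPM or less in every library. The list medians were 0.02 for the knockout and 0.04 for E2, against -0.02 for E2 over all genes.

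Among 10 genes of the ERK5 cascade the median was 0.24 for the knockout and -0.04 for E2. MEF2D, a transcription factor that ERK5 phosphorylates, came closest at 0.41 (SE 0.21, adjusted p 0.480). The kinase chaperone CDC37 came closest for E2, at 0.26 (SE 0.13, adjusted p 0.298), and also for the interaction. SGK1, a kinase that ERK5 can activate, came closest between the clones at -0.60 (SE 0.18, adjusted p 0.265).

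Of 14 genes of the JNK, p38 and NLK kinases and their activators, the p38 gene MAPK13 came closest for the knockout, at 0.49 (SE 0.12, adjusted p 0.222). MAP2K6 (MKK6), which activates p38, differed in E2 by -0.89 (SE 0.15), with an adjusted p of 0.0593, and fell with the replicate block at 0.0463. It went from 43.3 to 18.4 CPM in the parental line, from 26.0 to 14.7 CPM in clone 1 and from 25.9 to 16.8 CPM in clone 2. MAPK8 (JNK1) came closest for the interaction, at 0.55 (SE 0.27), and MAPKAPK3 between the clones, at -0.31 (SE 0.15). The list medians were -0.01 for the knockout and 0.05 for E2.

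The MAP kinase phosphatases, 8 of 9 of them tested, held the gene with the smallest p for the knockout over all lists. DUSP8, which prefers JNK and p38, stood at 1.82 and 3.69 CPM in the parental line and at 6.34 to 8.36 CPM in the clones, at a log2 difference of 1.45 (SE 0.24) (adjusted p 0.0861). DUSP6, the ERK phosphatase whose gene ERK signalling itself induces, stood at 141 and 143 CPM in the parental line and at 52.1 to 77.3 CPM in the clones, at -1.13 (SE 0.19, adjusted p 0.0987). The remaining phosphatases tested lay between -0.20 (DUSP9) and 0.45 (DUSP16) for the knockout, with DUSP5, another ERK phosphatase, at 0.27. The medians of the list were 0.17 for the knockout and 0.18 for E2. DUSP6 came closest between the clones, at -0.50 (SE 0.14, adjusted p 0.233). The nuclear ERK phosphatase DUSP5 differed in E2 by 0.93 (SE 0.18, adjusted p 0.0772), and it rose with the replicate block at an adjusted p of 0.0469.

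**Figure D5:**
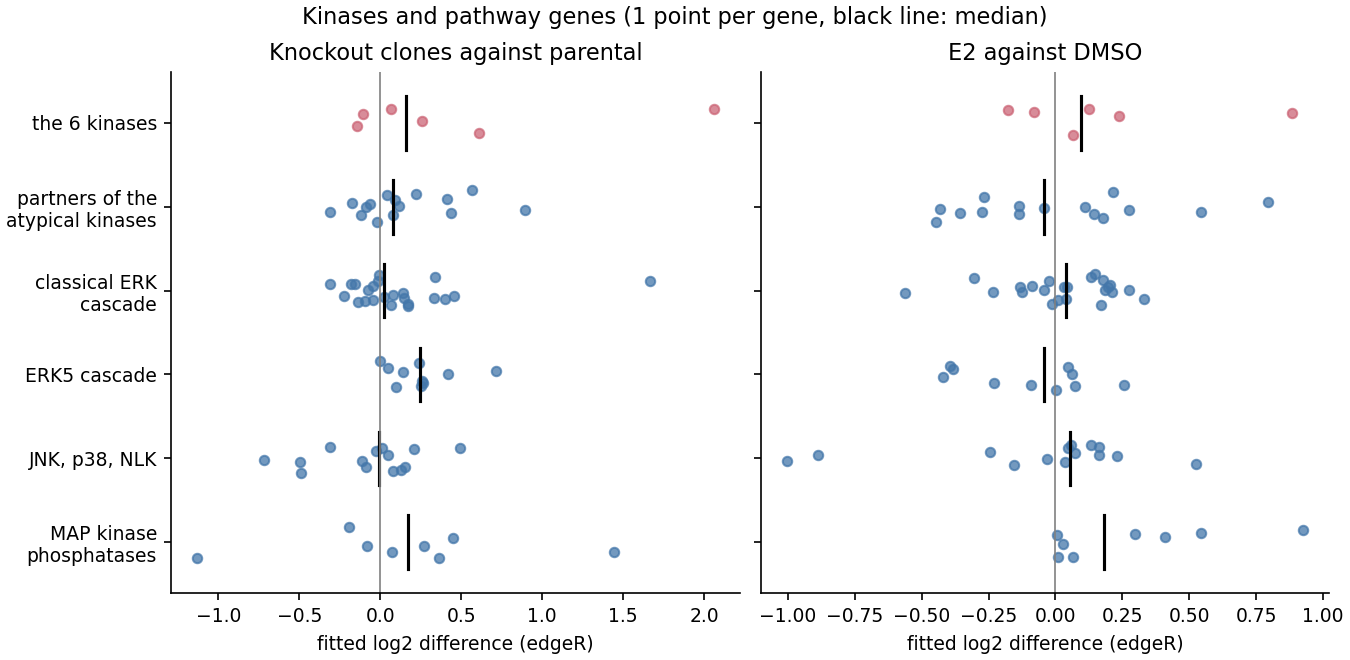
Fitted log2 differences (horizontal axes) of the 6 kinases (red) and of the genes of each pathway list (blue, 1 point per gene), for knockout clones against parental on the left and E2 against DMSO on the right; black lines are medians. MAPK4 lies at 2.06 on the left and MAPK15 at 0.88 on the right, while list medians lie between -0.04 and 0.24.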

How the data were processed

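Ishikawa RNA-seq libraries were analysed from deposited gene tables. The raw table holds whole-number counts per gene symbol, and the second table a normalized signal, which the authors deposited as the raw count divided by 1 factor per library (0.926 to 1.19). The submitters' processing notes name HISAT2, SAMtools, Subread, DESeq2 and build hg19; the annotation and strand setting were not given in the sources used here. Column names were matched to titles (DMOS as DMSO, ER as E2).

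Counts were tested in R 4.3.3 with edgeR 4.0.16: filterByExpr (15611 of 26364 genes), TMM, and the quasi-likelihood test with Benjamini-Hochberg adjustment over all genes at 0.05. SEs are the log2 coefficient over the root of F; intervals are 95%. Ratios of single libraries used a prior count of 2. Libraries of 1 line are paired by line: across genes clone 2 minus clone 1 correlated at 0.626 between treatments. The consensus correlation of libraries within a line, in limma-voom with a random replicate block, was only 0.113. Alternatives used DESeq2 1.42.0, limma-voom (limma 3.58.1), other scalings, filters and prior counts, the replicate block and left-out lines. A GC and length correction (lowess, GENCODE v29 transcripts, 93.6% of genes with a value) and leaving out the parental DMSO library were chosen after seeing the data. The kinases and gene lists were chosen with earlier results of these data known. Named were the 6 kinases, ETV4, in each list and comparison up to 2 genes per direction past the threshold or, with none, the gene with the smallest p, and the genes most like MAPK4. Fits were also run on simulated counts that had no pairing by line and no GC trend, so that check does not bear on these features. Its outcome is not given here.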

Additional observations from a re-analysis of the deposited data

Results flagged for a closer look

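The E2 effect on MAPK15 differed between genotypes in the test of the interaction with the replicate block, at a log2 difference of -1.45 between the clones and the parental line (adjusted p 0.00119, edgeR's quasi-likelihood test). That fit had 1 residual degree of freedom and called 15.8% of all genes, and the parental side is a single line. Its p-values rest on a spread shared over all genes, not on that of MAPK15 alone. Without the block it did not pass. The change was positive in all 3 lines and larger in the parental line (1.86) than in clone 1 (0.63) or clone 2 (0.29).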

How the results depend on the processing

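The counts of genes past the threshold moved with the tool and the design. MAPK4 passed the E2, interaction or clone-difference test in none of the fits that gave a p. For the knockout 51 genes passed, against 454 with DESeq2, 119 after the GC and length correction, 46 in limma-voom with a random replicate block, 2 without the parental DMSO library, and 631 without clone 1 or 996 without clone 2. The pathway lists gave 0, against 3 with DESeq2, 2 after the correction and 2 to 4 without a clone. For E2 176 passed, against 1115 with DESeq2, 427 after the correction, 384 with the replicate block, 1693 with block and correction, 351 with the block in limma-voom, 56 without the parental DMSO library, 2227 in the clones alone with the block, and 49 to 3353 when a line was left out (49 without the parental line, 3353 without clone 2). The lists gave 0, against 4, 3, 2, 5, 2, 0 and 5 in that order, and 0 to 6 when a line was left out.

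For the interaction 0 passed (1190 at an unadjusted p under 0.05), against 29 with DESeq2, 2470 with the replicate block, 1695 with block and correction, 2445 with block and median-ratio scaling, 1903 with the block in limma-voom and 839 with the block in DESeq2. The lists gave 0, against 4, 2, 4 and 3 in the first 4 blocked fits. Between the clones 136 passed, against 236 with no filter, 63 with at least 10 counts in every library, 369 with DESeq2, 357 after the correction, 43 with treatment left out of the model, and 2723 without the parental line, where 11 list genes passed.

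The MAPK4 difference in DMSO of 2.04 was 2.07 with a prior count of 0.5, 1.97 with 5, 2.22 with total-count scaling, 1.77 after the correction, and 2.02 to 2.05 with either clone alone; in E2 it was 1.91 to 2.10 with either clone alone. Without the parental DMSO library the knockout difference turned from 0.61 to -0.046 for MAPK15 and from -0.11 to 0.022 for MAPK6. Other signs also turned, among them these. After the correction the E2 effect was -0.0050 for MAPK4 and -0.11 for MAPKAPK5 (-0.11 with the block), and the interaction was 0.28 for MAPK4 (0.28 with the block) and 0.0014 for MAPK3 (0.0014 with the block). The E2 effect of MAPK6 ran from -0.21 without clone 2 to 0.0035 without the parental line and was 0.012 in the clones alone with the block. The cause of these shifts was not tested. The interaction without a clone has no residual degrees of freedom and gave no test, and the knockout could not be fitted without the parental line. Counts of 43 and 60 limit the precision of parental MAPK4.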
